A study of Mus musculus with 18 samples.

Results

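The 8 genes described here encode complement proteins that connective tissue cells can secrete: C1ra, C1s1, C4b, C2, C3, Cfb, C7 and Serping1. They were taken by name from the 17001 gene symbols counted in undifferentiated cells and the 15482 counted in differentiated cells, and all 8 were present and passed the filter on low counts in both. The 18 RNA libraries came from primary preadipocytes, progenitors of fat cells, of the epididymal white fat depot (eWAT) of wild-type (WT) mice, in 6 groups of 3. Preadipocytes of mice on a control diet (CD) received the cytokine TGF-b1 with SB431542, which blocks the kinase of type I TGF-b receptors, or TGF-b1 without it, or were labelled mock (CD mock). Mock preadipocytes from mice on the high-fat diet (HFD mock) formed the other undifferentiated group. Itga5-High and Itga5-Low cells were preadipocytes sorted with an antibody to CD49e, the integrin alpha 5 chain encoded by Itga5, and then put through adipogenic differentiation. No dose, duration, passage, number of mice or origin of the replicates is stated in the labels, so the p-values cover library-to-library spread alone, and this may be technical. Cells given SB431542 without TGF-b1, and sorted cells before differentiation, were not analysed here.

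Complement is a cascade of blood and tissue proteins that marks cells and debris for uptake, attracts leukocytes and can open pores in membranes. In the classical pathway C1q binds a surface, its partner protease C1r activates C1s, and C1s cuts C4 and C2. The alternative pathway runs through factor B and factor D. Both meet at C3, and the late components including C7 build the membrane attack complex. The liver makes most circulating complement, but fibroblasts, adipocytes and macrophages make components locally, and adipose tissue is the main source of factor D, also called adipsin.

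Total counts per library ranged from 11154449 to 17288608. The spread between replicates slightly exceeded counting noise (chi-square per degree of freedom 1.15 to 1.25). Levels are in CPM, counts scaled to a common library size of 1e+06, relative to the library total scaled by TMM, the edgeR method that centres the bulk of the genes; the 2 count tables were scaled separately, so levels of undifferentiated and differentiated cells are set side by side without a test. Scaling by total counts instead moved the median change of all genes to -0.164, 0.295, 0.116 and -0.0911 on the log2 scale for TGF-b1 against CD mock, TGF-b1 with SB431542 against TGF-b1, TGF-b1 with SB431542 against CD mock and HFD mock against CD mock, from -0.0165, 0.0375, 0.0063 and -0.00769. The share of called genes that were higher then became 31.4%, 70.0%, 67.7% and 33.7%, in place of 49.4%, 52.0%, 50.1% and 50.5%. The fibroblast marker Pdgfra stood between 150 and 486 CPM in all groups, and markers of macrophages, mesothelium and endothelium were also present in the undifferentiated libraries. In bulk RNA, fewer cells of a type and less RNA per cell cannot be told apart.

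All 8 genes followed the same order in undifferentiated cells, highest with TGF-b1 and SB431542, then CD mock, then HFD mock, and lowest with TGF-b1. In differentiated cells all 8 were lower in Itga5-High than in Itga5-Low. The libraries of neighbouring groups in this order did not overlap for any gene except C2, for which HFD mock and TGF-b1 overlapped. The order and that exception were the same with CPM by unscaled column totals. Summed over the 8 genes, the level averaged 3822 ± 5.04 CPM with TGF-b1 and SB431542, 382.9 ± 21.2 CPM with TGF-b1, 980.4 ± 12 CPM in HFD mock and 1805 ± 24.6 CPM in CD mock (SD, n = 3 each). It averaged 2511 ± 10.9 CPM in Itga5-High and 3408 ± 8.89 CPM in Itga5-Low cells (SD, n = 3 each).

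**Figure D1:**
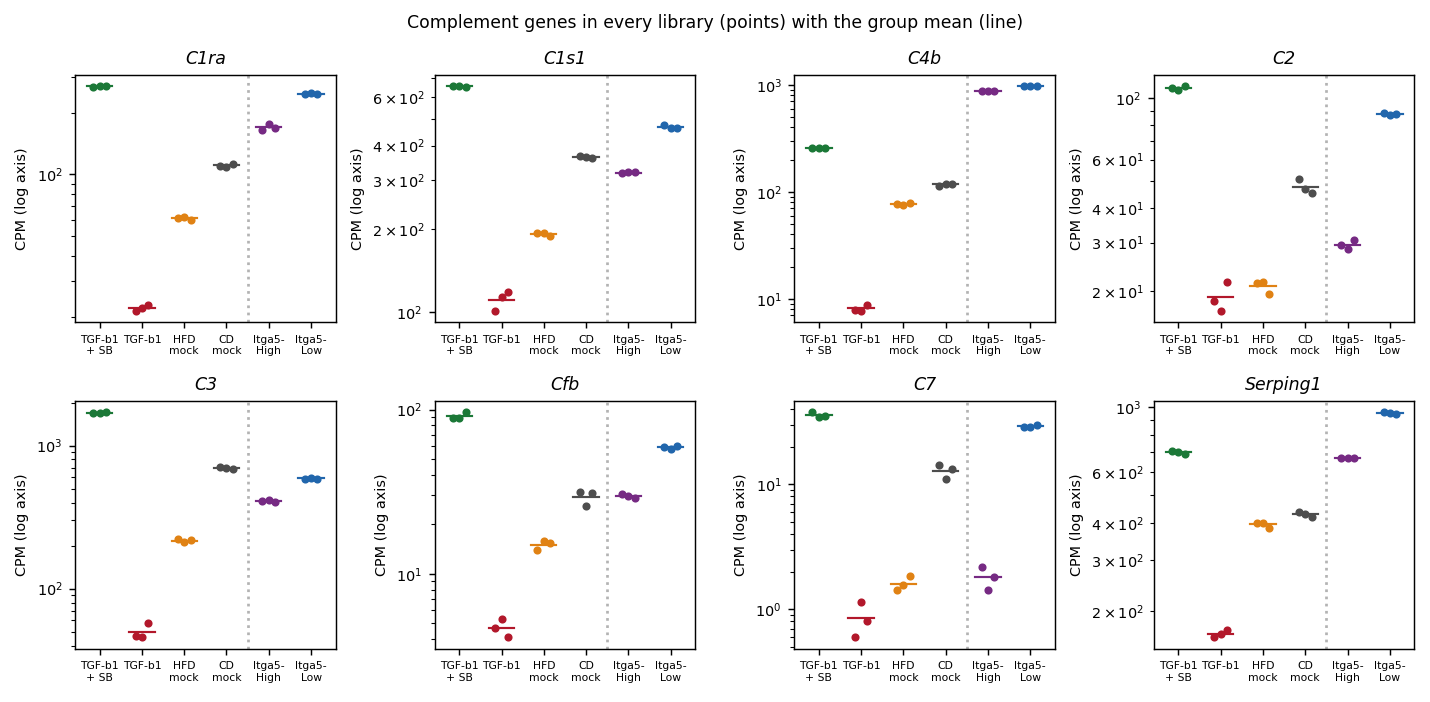
Level of each complement gene in CPM (log axis, scale set per gene) in the 3 libraries of every group (points) with the group mean (line). The dotted line separates the 2 count tables. Every gene is lowest with TGF-b1 and highest with TGF-b1 and SB431542 among undifferentiated cells, and C7 is the gene that separates Itga5-High (1.81 CPM) from Itga5-Low (29.0 CPM) by most.

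Promoter windows from RefSeq on build GRCm38.p6, the build named mm10 in the processing notes, were at hand for 4 of the 8 genes. They run from about 250 bases before to 50 bases after the transcript start. They are those of C3, C7, C1ra and C1s1, shown as the windows at hand of genes that, like all 8 members, shared their direction in every comparison. Capitals mark matches, on either strand, to a STAT motif (TTCNNNGAA), an interferon response motif (GAAA repeated after 2 bases), a kB motif (GGG, TT after 2 further bases, CC after 1 further base), a C/EBP motif (TTNNGNAA), a Smad motif (CAGACA) or a TATA box (TATAAA). The windows read 5' to 3' on the gene's strand.
C3 (minus strand, chr17:57228087-57228386): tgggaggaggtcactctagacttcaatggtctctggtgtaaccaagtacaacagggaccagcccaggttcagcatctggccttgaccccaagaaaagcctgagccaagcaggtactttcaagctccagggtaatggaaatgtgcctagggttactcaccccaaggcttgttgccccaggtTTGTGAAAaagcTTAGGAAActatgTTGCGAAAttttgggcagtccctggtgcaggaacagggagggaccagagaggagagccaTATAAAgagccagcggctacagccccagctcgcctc
C7 (minus strand, chr15:5063724-5064023): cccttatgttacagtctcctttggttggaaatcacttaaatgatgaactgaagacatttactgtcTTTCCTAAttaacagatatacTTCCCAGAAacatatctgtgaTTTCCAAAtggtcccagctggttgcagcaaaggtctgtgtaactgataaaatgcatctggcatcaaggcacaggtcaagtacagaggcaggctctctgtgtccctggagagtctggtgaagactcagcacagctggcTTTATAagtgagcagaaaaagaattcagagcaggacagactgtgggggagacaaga
C1ra (plus strand, chr6:124512371-124512670): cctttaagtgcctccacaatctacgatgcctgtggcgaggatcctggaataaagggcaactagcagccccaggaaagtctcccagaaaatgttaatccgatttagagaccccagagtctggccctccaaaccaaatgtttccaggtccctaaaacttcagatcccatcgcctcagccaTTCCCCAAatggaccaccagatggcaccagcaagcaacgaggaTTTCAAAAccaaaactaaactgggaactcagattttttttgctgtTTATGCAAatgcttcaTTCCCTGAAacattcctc
C1s1 (minus strand, chr6:124542310-124542609): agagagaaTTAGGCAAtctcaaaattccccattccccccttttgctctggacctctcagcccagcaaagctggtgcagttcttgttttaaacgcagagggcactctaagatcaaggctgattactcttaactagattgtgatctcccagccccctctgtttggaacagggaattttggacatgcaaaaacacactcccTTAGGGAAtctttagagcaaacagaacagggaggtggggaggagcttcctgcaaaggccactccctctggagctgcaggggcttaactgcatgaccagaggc
The C3 window held 3 C/EBP matches, at -69 to -62, -57 to -50 and -44 to -37 from the transcript start at 0, and a TATA match at 15 to 20. In the C7 window there were 2 C/EBP matches, 1 STAT match at -163 to -155 and 1 TATA match at -5 to 0. The last bases of the C7 window were found near the start of 0 GENCODE transcripts of C7. For the other windows 1 to 4 transcripts of the gene held them. The C7 start, and positions counted from it, are therefore less certain. C1ra had 3 C/EBP matches and 1 STAT match at 32 to 40, and C1s1 had 2 C/EBP matches in the window printed. Another C1s1 window, chr6:124542272-124542571, overlaps it, held 1 C/EBP match and is not printed. No window of these genes held the interferon response, kB or Smad letters, and no matches overlapped. Among all 32851 windows searched, 40.7% held the C/EBP letters, 8.3% the STAT, 13.6% the TATA, 3.44% the interferon response, 4.79% the kB and 21% the Smad letters. A match describes letters in a window and was not tested as a binding site.

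C1ra and C1s1 encode the serine proteases of the C1 complex and lie 6903 bases apart on chromosome 6, C1ra on the plus strand from 124512621 to 124523441 and C1s1 on the minus strand from 124530344 to 124542360. C1ra, whose protein activates C1s, was at 268, 271 and 269 CPM with TGF-b1 and SB431542, 21.5, 22.3 and 22.9 CPM with TGF-b1, 61.1, 62.0 and 59.7 CPM in HFD mock, and 109.8, 109.1 and 112.8 CPM in CD mock. C1s1, whose protein cuts C4 and C2, was at 656.5, 657.6 and 653.6 CPM with TGF-b1 and SB431542, 101, 113 and 118 CPM with TGF-b1, 194, 194 and 189 CPM in HFD mock, and 368, 364 and 359.5 CPM in CD mock. No libraries of different groups overlapped for either gene. C1ra fell 4.96-fold with TGF-b1 against CD mock (-2.31 ± 0.0453 log2, SE) and C1s1 3.27-fold (-1.71 ± 0.0264 log2). With the inhibitor C1ra was 12.1-fold and C1s1 5.89-fold above TGF-b1 alone. In HFD mock the log2 change from CD mock was -0.86 ± 0.0352 for C1ra and -0.92 ± 0.0233 for C1s1. After differentiation C1ra stood at 165, 177 and 168 CPM in Itga5-High cells against 247, 249.2 and 248 CPM in Itga5-Low cells. C1s1 stood at 318, 321 and 319.9 CPM in Itga5-High against 473.8, 461 and 462 CPM in Itga5-Low cells. Their near copies C1rb and C1s2, which could share reads with them, averaged at most 0.0817 and 0.769 CPM in any group where they were counted. The changes of both genes between the sorted groups were close, at -0.55 ± 0.023 log2 for C1ra and -0.54 ± 0.0167 log2 for C1s1.

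C4b and C2 supply the pieces of the classical C3 convertase, the enzyme that cuts C3. Both lie on the minus strand of chromosome 17, C4b from 34728381 to 34743898 and C2 from 34862602 to 34882101. C4b was at 258.5, 258.9 and 257.9 CPM with TGF-b1 and SB431542, 7.93, 7.71 and 8.83 CPM with TGF-b1, 77.1, 75.8 and 78.1 CPM in HFD mock, and 115, 119 and 118 CPM in CD mock. Its log2 change from CD mock was -3.83 ± 0.0564 with TGF-b1 (14.3-fold lower) and -0.61 ± 0.0331 in HFD mock. The groups of libraries stood apart from each other throughout. C2 was at 109, 107 and 111 CPM with TGF-b1 and SB431542, 18.3, 16.9 and 21.6 CPM with TGF-b1, 21.5, 21.6 and 19.5 CPM in HFD mock, and 51.1, 47.1 and 45.3 CPM in CD mock. Its libraries in TGF-b1 and in HFD mock overlapped, both below CD mock. C2 was 2.49-fold lower with TGF-b1 (-1.31 ± 0.0663 log2) and 2.29-fold lower in HFD mock (-1.20 ± 0.0639 log2) than in CD mock. After differentiation C2 was 2.97-fold lower in Itga5-High cells, at 29.4, 28.5 and 30.6 CPM against 88.2, 87.1 and 87.8 CPM in Itga5-Low. C4b was 1.11-fold lower, at 879, 882 and 882 CPM in Itga5-High against 972, 978 and 979 CPM in Itga5-Low (edgeR quasi-likelihood test, adjusted p = 1.5e-12). C4a, a near-identical neighbour of C4b whose reads the counting could have divided with it, stood at 0.397 to 1.73 CPM in the 6 groups.

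C3 is the central component on which the pathways converge, and Cfb encodes factor B, the paralog of C2 that forms the C3 convertase of the alternative pathway. C3 lies on chromosome 17 from 57203967 to 57228137, and Cfb from 34856374 to 34862515, both on the minus strand. Cfb and C2 are neighbours, 87 bases apart. C3 was at 1694, 1699 and 1714 CPM with TGF-b1 and SB431542, 47.0, 45.8 and 57.3 CPM with TGF-b1, 221, 211 and 217.5 CPM in HFD mock, and 704, 695 and 682 CPM in CD mock. The libraries of these 4 groups did not overlap. The log2 change of C3 was -3.78 ± 0.0279 for TGF-b1 against CD mock and -1.68 ± 0.0206 for HFD mock against CD mock. Adding SB431542 to TGF-b1 raised C3 by 5.07 ± 0.0245 log2 over TGF-b1, to 1.30 ± 0.0156 log2 above CD mock. Cfb was at 88.7, 89.3 and 96.5 CPM with TGF-b1 and SB431542, 4.69, 5.32 and 4.11 CPM with TGF-b1, 14.01, 15.8 and 15.4 CPM in HFD mock, and 31.5, 26.0 and 31.1 CPM in CD mock. It stood further above CD mock with TGF-b1 and SB431542 than any other member, by 1.64 ± 0.0536 log2. In the sorted cells C3 was at 411, 415.5 and 401 CPM in Itga5-High against 588, 592 and 587.5 CPM in Itga5-Low. Cfb was 1.97-fold lower, at 30.8, 29.7 and 28.9 CPM in Itga5-High against 58.9, 57.6 and 59.9 CPM in Itga5-Low cells.

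C7 encodes a late component that anchors the membrane attack complex, and lies on the minus strand of chromosome 15 from 4988762 to 5063774. It had the lowest CPM of the 8 in every group, and the largest fold between undifferentiated groups, 42.0-fold higher when SB431542 accompanied TGF-b1 than without it. C7 was at 37.8, 34.7 and 35.1 CPM with TGF-b1 and SB431542, 0.597, 1.15 and 0.809 CPM with TGF-b1, 1.42, 1.55 and 1.83 CPM in HFD mock, and 14.2, 11.1 and 13.4 CPM in CD mock. The low groups rest on few reads, with 7, 13 and 12 counts in the TGF-b1 libraries and 20, 19 and 26 in HFD mock against 161, 157 and 156 in CD mock. The change from CD mock was -3.90 ± 0.183 log2 with TGF-b1 and -2.98 ± 0.155 log2 in HFD mock. The change in HFD mock was 47th from the lowest of 14078 genes tested. In differentiated cells C7 was at 2.19, 1.43 and 1.82 CPM in Itga5-High against 28.6, 28.6 and 29.7 CPM in Itga5-Low. That change of -3.96 ± 0.116 log2 (edgeR quasi-likelihood test, adjusted p = 1.78e-24) was the 3rd lowest of 13468 genes tested.

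Serping1 encodes C1 inhibitor, the plasma serpin that inactivates C1r and C1s as well as kallikrein, and lies on the minus strand of chromosome 2 from 84765360 to 84775430. It is the inhibitor among the 8 genes, and it changed in the same direction as C1ra and C1s1, by less in each comparison. In the sorted cells the 3 changes were close. C2 fell by less than Serping1 with TGF-b1 (-1.31 log2), and C4b changed by less between the sorted groups (-0.15 log2). Serping1 was at 707, 700.4 and 691 CPM with TGF-b1 and SB431542, 163, 167 and 172 CPM with TGF-b1, 400.5, 401.9 and 386 CPM in HFD mock, and 438, 429.7 and 420.0 CPM in CD mock. It fell 2.56-fold with TGF-b1 against CD mock (-1.36 ± 0.0214 log2). The difference between HFD mock and CD mock was small but the libraries did not overlap, at -0.12 ± 0.0181 log2 or 1.08-fold lower (edgeR quasi-likelihood test, adjusted p = 1.65e-05). In Itga5-High cells Serping1 was at 671, 669 and 670.0 CPM against 961, 951 and 948 CPM in Itga5-Low, a change of -0.51 ± 0.0121 log2.

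**Figure D2:**
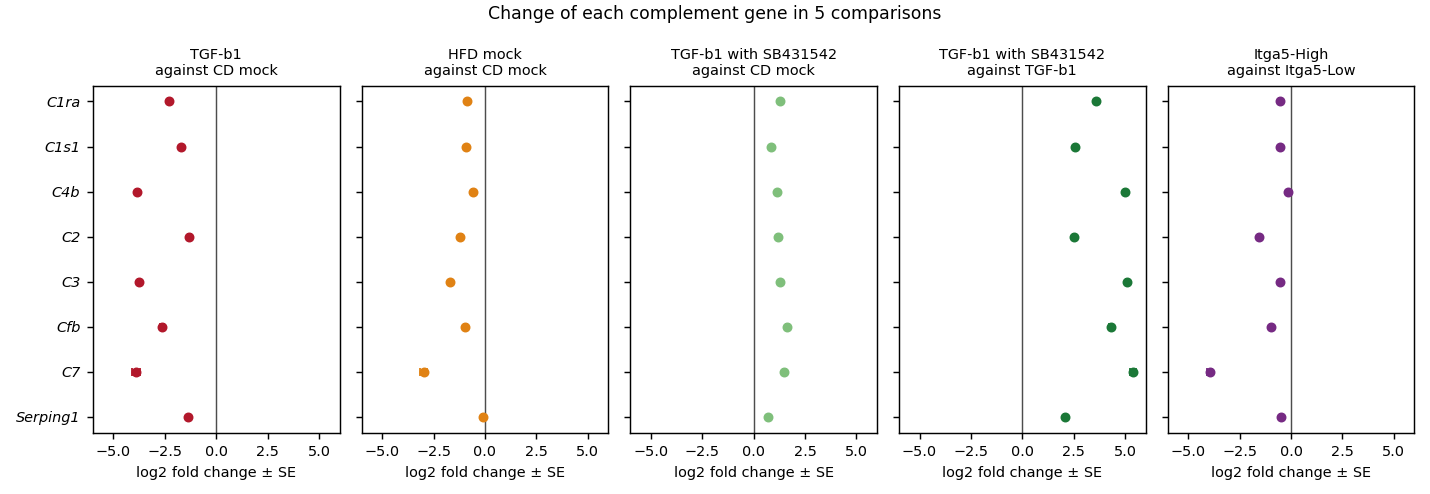
Log2 fold change with its SE for the 8 genes (rows) in 5 comparisons (panels), from the edgeR fits over all genes. Points left of 0 are lower in the group named first; every point with TGF-b1 against CD mock lies below -1.3, and every point with TGF-b1 and SB431542 against TGF-b1 lies above 2.

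Set beside all genes, the comparison of TGF-b1 with CD mock called 8 of 8 members lower, where 34.2% of the 14078 genes tested were called lower; the libraries did not overlap for 8 of 8, and for 35.1% of genes in that direction. By at least 1 log2 unit, 8 of 8 were lower against 11.2% of genes. The members were chosen with earlier results of these data known. Their counts beside all genes, here and below, therefore describe the list and do not test it. The members' median change was -2.48 log2, and that of all genes -0.0165. The largest adjusted p among the members was 6.66e-22 in the quasi-likelihood test of edgeR, for C2. Markers of other cell types moved in the same libraries. Mesothelial markers were called lower in 9 of 10, with their summed level at 724 to 739 CPM with TGF-b1 against 2484 to 2523 CPM in CD mock. Mature adipocyte markers were called lower in 8 of the 8 counted, at 238 to 244 CPM against 1331 to 1355 CPM, with Retn at 0 counts in the TGF-b1 libraries. Most of that sum was Lpl, at 158 against 1112 CPM. Endothelial markers were called lower in 7 of 9 and higher in 2, at 233 to 235 CPM against 411 to 429.8 CPM. The sums of these 3 lists were thus lower in the same libraries as the complement genes, while the next 2 were not. Macrophage markers were called lower in 4, higher in 1 and not called in 5 of 10, at 572 to 590.1 CPM against 554 to 561 CPM. The macrophage marker called higher was Lyz2, at 384 against 307 CPM. Pericyte markers were called lower in 5 of 6 and higher in 1, at 371 to 373 CPM against 299 to 314 CPM. The pericyte marker called higher was Cspg4, at 189.5 against 27.65 CPM, so the sum hides the lower level of the others. The preadipocyte and fibroblast markers of the labelled cell type also moved, called lower in 8 of 10 and higher in 2 with a median of -2.05 log2. Their summed level was higher, at 16210 to 16240 CPM against 11760 to 11850 CPM, most of it Col1a1 (14770 against 8930 CPM). Their part in the result was not tested.

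When SB431542 was added to TGF-b1, 8 of 8 members were called higher than with TGF-b1 alone, where 41.4% of genes were called higher, and 41.7% had libraries that did not overlap in that direction. By at least 1 log2 unit 8 of 8 were higher, against 18.1% of genes. Changes ran from 2.06 ± 0.0197 log2 for Serping1 to 5.39 ± 0.14 log2 for C7, with a median of 3.94 beside 0.0375 for all genes. C4b rose by 4.97 ± 0.0461 log2, Cfb by 4.29 ± 0.0803 log2 and C2 by 2.51 ± 0.0546 log2. The largest adjusted p in edgeR's quasi-likelihood test was 1.98e-32, for C7. Against CD mock, 8 of 8 members were called higher with TGF-b1 and SB431542, where 30.6% of genes were called higher, and 32.4% had libraries that did not overlap in that direction. Of these, 6 were higher by at least 1 log2 unit, against 7.83% of genes; the other members, C1s1 and Serping1, were at 0.85 ± 0.019 and 0.71 ± 0.0166 log2. C7 was higher by 1.49 ± 0.0778 log2, C1ra by 1.29 ± 0.0258, C2 by 1.19 ± 0.0446 and C4b by 1.14 ± 0.0258 log2, with 1.14e-20 as the largest adjusted p (edgeR), for C7. The members' median was 1.24 log2 beside 0.0063 for all genes. The 3 comparisons among CD mock, TGF-b1 and TGF-b1 with SB431542 share their libraries, so their values are not independent. Because SB431542 was not given alone, the inhibitor and the combination cannot be told apart in the comparison with CD mock.

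Mesothelial markers with TGF-b1 and SB431542 summed to 2169 to 2177 CPM, above TGF-b1 alone but below CD mock, against which 7 of 10 were called lower and 1 higher while the 8 complement genes were higher. Macrophage markers were called higher in 10 of 10 both against TGF-b1 and against CD mock, at 1119 to 1154 CPM. Mature adipocyte markers were higher in 8 of 8 against each, at 3764 to 3799 CPM, most of it Lpl (2803 CPM). Endothelial markers summed to 894 to 913 CPM, with 7 of 9 called higher against each. Called lower were 2 against TGF-b1 (Kdr and Flt1) and 1 against CD mock (Kdr). Pericyte markers summed to 597 to 614 CPM, of which Notch3 was 320 CPM, with 4 of 6 called higher against each. Called lower were 2 against TGF-b1 (Cspg4 and Rgs5) and 1 against CD mock (Rgs5). Of the preadipocyte and fibroblast markers 8 of 10 were called higher than with TGF-b1, and 4 higher and 4 lower than in CD mock. That list summed to 5892 to 5933 CPM, below both groups, with Col1a1 called lower against each (2067 CPM). Whether cells of these types contributed to the complement levels was not tested.

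For diet, 8 of 8 members were called lower in HFD mock than in CD mock, where 26.6% of genes were called lower, and 28.9% had libraries that did not overlap in that direction. By at least 1 log2 unit 3 were lower (C7, C3 and C2), against 7.37% of genes; scaled by total counts 5 were, with Cfb and C1s1 added. Their median was -0.94 log2 and that of all genes -0.00769, and the range ran from -0.12 for Serping1 to -2.98 for C7. Mesothelial markers were called lower in 10 of 10, at 654 to 667 CPM in HFD mock, and endothelial markers in 8 of 9 with 1 higher, at 170.2 to 175 CPM. Mature adipocyte markers were lower in 7 of 8, at 916 to 932.5 CPM, and pericyte markers in 5 of 6, at 183 to 185 CPM. Lpl made up most of the adipocyte sum, at 785 against 1112 CPM. Preadipocyte and fibroblast markers were called lower in 7 of 10 and higher in 3. Their summed level was higher, at 15190 to 15240 CPM against 11760 to 11850 CPM, most of it Col1a1 (12950 against 8930 CPM). Macrophage markers were called higher in 10 of 10. They summed to 2282 to 2296 CPM in HFD mock against 554 to 561 CPM in CD mock. The part of these cells in the result was not tested. This comparison shares its CD mock libraries with that of TGF-b1; Cfb changed by -2.65 ± 0.106 log2 with TGF-b1 and by -0.96 ± 0.0788 log2 in HFD mock.

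Among differentiated cells, 8 of 8 members were called lower in Itga5-High than in Itga5-Low, where 26.5% of the 13468 genes tested were called lower, and 29% had libraries that did not overlap in that direction. By at least 1 log2 unit 2 were lower, C7 and C2, against 2.09% of genes; Cfb made it 3 when scaled by total counts or without Itga5-High replicate 1. The members' median was -0.55 log2, and that of all genes -0.00333. Itga5 itself was at 471.6 CPM in Itga5-High against 329 CPM in Itga5-Low, a change of 0.52 ± 0.0169 log2. Macrophage markers summed to 43.55 to 44.55 CPM in Itga5-High and 22.1 to 23.9 CPM in Itga5-Low, with 2 of 10 not listed (Ptprc and Fcgr1). Of the 5 tested, 2 were called higher, Csf1r (29.5 against 9.54 CPM) and Cd68 (2.96 against 1.96 CPM), and 3 were not called. Mesothelial markers summed to 101 to 104 CPM in Itga5-High and 42.25 to 45.2 CPM in Itga5-Low, with 4 of 10 not listed (Msln, Krt8, Krt18 and Muc16). Most of that sum was Krt19, at 99.3 against 40.1 CPM and called higher. Wt1, the other of the 2 tested, was not called. Endothelial markers stood at 50.03 to 53.1 CPM against 52.3 to 55.04 CPM, with 1 called higher, 2 lower and 4 not called of 7 tested. Pericyte markers stood at 81.2 to 87 CPM against 73.8 to 84.95 CPM, with 2 called higher and 3 lower of 5 tested. Mature adipocyte markers were called lower in 7 of 8, at 7331 to 7358 CPM in Itga5-High against 8203 to 8254 CPM in Itga5-Low. Preadipocyte and fibroblast markers were called lower in 4 of 10 and higher in 4. Pi16 was at -2.66 and Cd34 at -1.90 log2, and Thy1 and Col1a1 were among those that were higher. The list summed to 29200 to 29500 CPM in Itga5-High against 24010 to 24170 CPM in Itga5-Low, most of it Col1a1 (26350 against 21150 CPM). The part of these lists in the result was not tested.

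**Figure D3:**
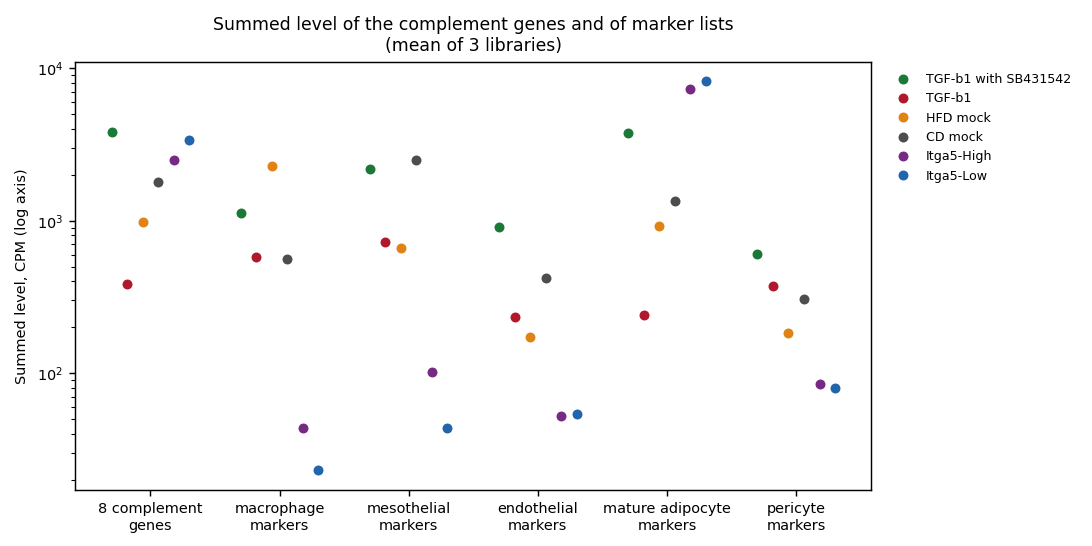
Summed level in CPM (log axis) of the 8 complement genes and of 5 marker lists, as the mean of 3 libraries per group. Macrophage markers are highest in HFD mock (2287 CPM) and mesothelial markers in CD mock (2506 CPM). The complement genes (3822 CPM), endothelial markers (906 CPM) and pericyte markers (608 CPM) are highest with TGF-b1 and SB431542. Among undifferentiated groups so are mature adipocyte markers (3784 CPM), followed by CD mock (1339 CPM), HFD mock (924 CPM) and TGF-b1 (241 CPM). That is the order of the complement genes, and its cause was not tested. Most of these 4 adipocyte sums is Lpl, at 2803, 1112, 785 and 158 CPM, while Adipoq is at 70.4, 3.99, 0.29 and 0.118 CPM. The preadipocyte and fibroblast list is not drawn.

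Per length of transcript, which allows genes to be compared with each other, Serping1 was the most abundant of the 8 in every group. In CD mock it was at 236 ± 4.8 CPM per kb, followed by C3 at 135 ± 2.16 and C1s1 at 124 ± 1.39 CPM per kb (SD, n = 3), and C7 was lowest at 4.75 ± 0.582 CPM per kb. With TGF-b1 the inhibitor gene made up 58.0% of the summed level per kb of the 8 genes, and C3 6.15%. With TGF-b1 and SB431542 Serping1 made up 32.8% and C3 28.2%; in HFD mock 57.9% and 11.2%, and in CD mock 39.9% and 22.9%. The ratio of C3 to Serping1 per kb was 0.862 ± 0.0153 with TGF-b1 and SB431542, 0.106 ± 0.011 with TGF-b1, 0.194 ± 0.00678 in HFD mock and 0.573 ± 0.00258 in CD mock, with no overlap between libraries. In both differentiated groups that ratio was nearly equal, at 0.216 ± 0.00403 in Itga5-High and 0.219 ± 0.00188 in Itga5-Low.

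C4b took a different place in the differentiated libraries. These were also sorted and scaled separately, and their macrophage, mesothelial and endothelial markers summed lower. Differentiation cannot be told apart from these differences. C4b ranked 2nd per kb in Itga5-High, at 163 ± 0.31 CPM per kb, and in Itga5-Low, at 181 ± 0.747 CPM per kb. In undifferentiated cells it ranked 5th, except with TGF-b1, where it ranked 7th at 1.51 ± 0.107 CPM per kb. Its ratio to C3 per kb was 0.145 ± 0.0011 with TGF-b1 and SB431542, 0.156 ± 0.00833 with TGF-b1, 0.339 ± 0.00541 in HFD mock and 0.161 ± 0.00536 in CD mock. By library it lay between 0.333 and 0.342 in HFD mock and between 0.143 and 0.165 in the other undifferentiated groups. In the sorted cells the ratio was 2.05 ± 0.0386 in Itga5-High and 1.58 ± 0.00785 in Itga5-Low. The partner proteases also shifted: C1s1 over C1ra per kb was 2.30 ± 0.011 with TGF-b1 and SB431542, 4.70 ± 0.233 with TGF-b1, 2.98 ± 0.0205 in HFD mock and 3.11 ± 0.0862 in CD mock. It was 1.78 ± 0.0583 in Itga5-High and 1.77 ± 0.0324 in Itga5-Low cells, whose libraries overlapped.

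**Figure D4:**
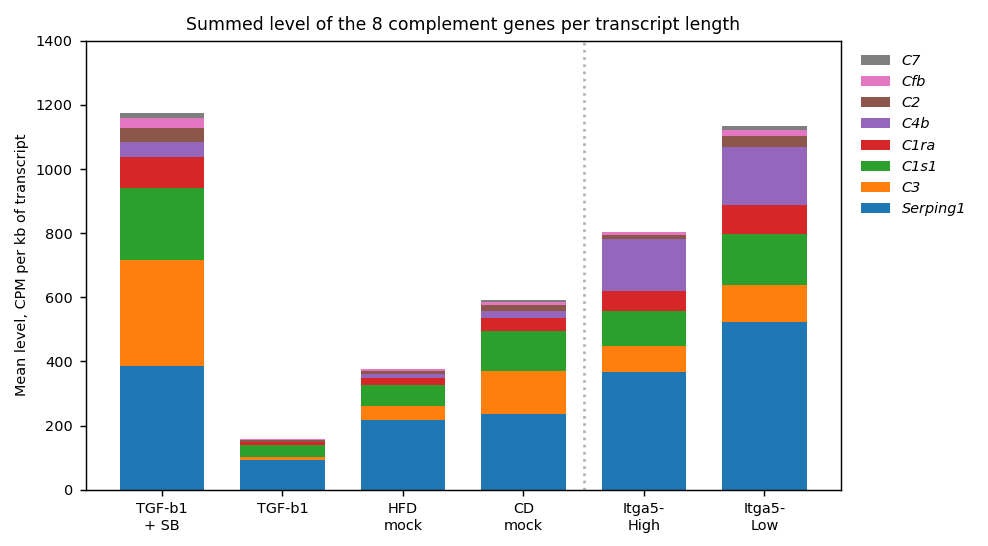
Mean level of the 8 genes in CPM per kb of transcript (n = 3 libraries per group), stacked from 0 to their sum. Serping1 is the largest block in every group; C3 is the 2nd block with TGF-b1 and SB431542 and in CD mock, and C4b in the differentiated cells right of the dotted line.

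C1s1 and Cfb were each counted as 2 RefSeq transcripts and the other 6 genes as 1. The 2910-base transcript of C1s1 took 57.6 ± 2.4% of the gene's counts with TGF-b1 and SB431542, 54.8 ± 9.98% with TGF-b1, 59.5 ± 4.7% in HFD mock and 56.0 ± 2.28% in CD mock. It took 69.1 ± 4.44% in Itga5-High and 62.9 ± 3.09% in Itga5-Low cells, with overlapping libraries (SD, n = 3 each). The transcripts of Cfb differ in length by few bases, and the share of the 2743-base one varied between replicates from 7.83% to 34.0% in Itga5-High, so that no difference between groups could be read from it.

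The list of other complement genes held 52 symbols, of which 41 were counted in undifferentiated cells and 28 tested. In TGF-b1 against CD mock 15 of the 28 were called lower, 6 higher and 7 were not called (34.2% and 33.4% of all genes were called lower and higher), with a median of -0.51 log2. With TGF-b1 and SB431542 against TGF-b1, 21 were called higher and 3 lower (41.4% and 38.3% of all genes), with a median of 1.17 log2. Against CD mock the combination had 21 called higher and 2 lower (30.6% and 30.4% of all genes), with a median of 0.74 log2. In HFD mock against CD mock 15 were called higher and 11 lower (27.1% and 26.6% of all genes), with a median of 0.59 log2, where the 8 members had one of -0.94. Of the 23 tested in differentiated cells, 6 were called higher and 8 lower in Itga5-High (27% and 26.5% of all genes), with a median of -0.16 log2.

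Among the regulators, Clu, which encodes clusterin, an inhibitor of the membrane attack complex, was at 237 CPM with TGF-b1 and SB431542, 16.99 CPM with TGF-b1, 60.2 CPM in HFD mock and 184 CPM in CD mock. It fell by 3.43 on the log2 scale with TGF-b1 and by 1.61 in HFD mock against CD mock. Cd55, the decay accelerating factor of cell membranes, was lowered by -1.33 ± 0.073 log2 with TGF-b1 and by -1.05 ± 0.0687 log2 in HFD mock. Cr1l, the rodent membrane regulator Crry, was at 48.7 to 67.9 CPM in all 6 groups. It was not called in TGF-b1 against CD mock (-0.06 ± 0.0505 log2) unless scaled by total counts (-0.21 log2). It was called higher with TGF-b1 and SB431542 than with TGF-b1 (0.18 ± 0.0486 log2), and in Itga5-High than in Itga5-Low (0.28 ± 0.0411 log2).

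Cfd encodes factor D and is a product of adipocytes. It was at 101, 101 and 106 CPM with TGF-b1 and SB431542, against 5.63, 7.71 and 5.74 CPM in CD mock. Over 3 libraries each, TGF-b1 and HFD mock held 2 counts apiece where CD mock held 240. The ratio to CD mock was 0.00819 with TGF-b1 (95% exact interval 0.000986 to 0.0299) and 0.00766 in HFD mock (0.000922 to 0.028), intervals that cover counting error only. In the sorted cells Cfd went against the 8 members, at 24.7 CPM in Itga5-High and 14.2 CPM in Itga5-Low (0.80 ± 0.0787 log2). Cfi, which encodes the protease factor I, was at 1.33 CPM in Itga5-High against 7.90 CPM in Itga5-Low, and at no more than 0.323 CPM on average in undifferentiated groups.

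Genes that macrophages are known for moved apart from the 8 members under the diet. The C1q chains C1qa, C1qb and C1qc, which recognise the target surface, were at 192, 203 and 187 CPM in HFD mock against 19.8, 24.2 and 22.6 CPM in CD mock, changes of 3.28, 3.06 and 3.05 log2. The receptors for the small fragments of C3 and C5, C3ar1 and C5ar1, rose by 2.39 ± 0.0422 and 2.68 ± 0.0526 log2 in HFD mock, and Cfp, which encodes properdin, by 2.42 ± 0.0852 log2. With TGF-b1 against CD mock C1qa rose by 1.10 ± 0.0618 log2, C1qb by 0.37 ± 0.0664 log2 and C1qc by 0.59 ± 0.0662 log2 while the 8 members fell. C3ar1, C5ar1 and Cfp were called lower with TGF-b1, as the 8 members were, at -0.31 ± 0.0659, -0.95 ± 0.0948 and -1.22 ± 0.155 log2. None of the 3 chains averaged above 0.538 CPM in the differentiated groups, where they were not tested.

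**Figure D5:**
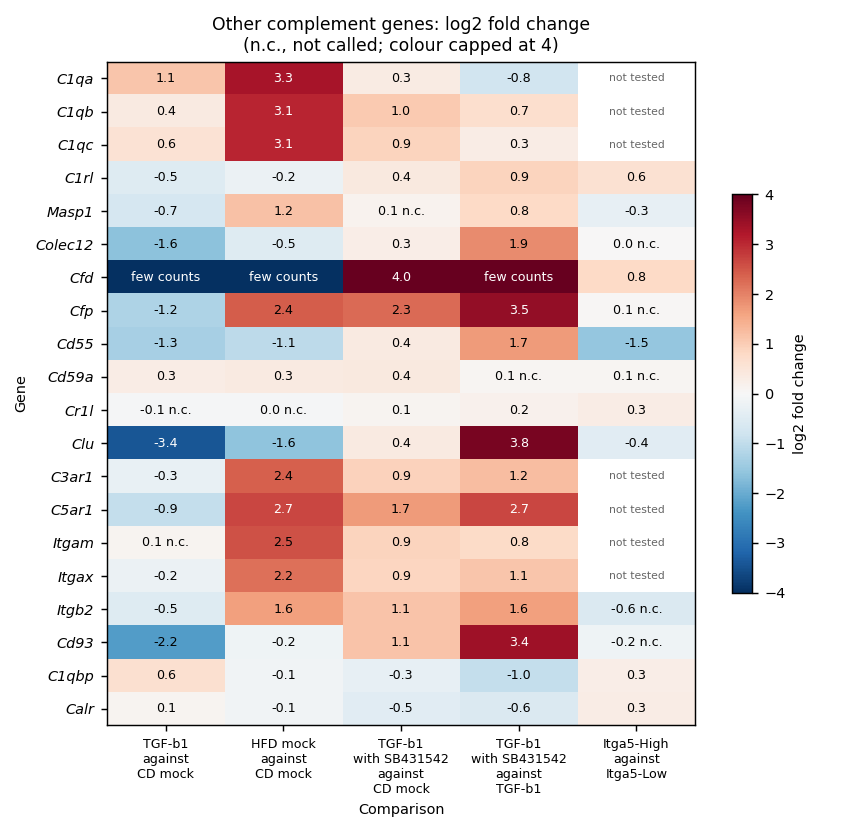
Log2 fold changes of 20 other complement genes that reached a mean of 10 CPM in a group (rows) in 5 comparisons (columns); blue is lower and red higher in the group named first, n.c. marks genes not called, and colours stop at 4. Cells marked "few counts" set Cfd against or in a group with 2 counts, and carry no size. The C1q chains and the receptors C3ar1 and C5ar1 are red for HFD mock against CD mock, where Cd55, Clu and Cfd are blue.

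A list of 21 genes, all tested, held receptors and transcription factors known to act on complement genes. It also held Il6 and the inhibitors Nfkbia and Socs3, so its counts pool genes that promote and restrain such signals. With TGF-b1 against CD mock 19 were called lower and 1 higher (34.2% and 33.4% of all genes), with a median of -0.51 log2. Il1r1, the interleukin-1 receptor, fell by 1.85 on the log2 scale with TGF-b1. The gene that rose was Il6, which encodes the cytokine interleukin-6, at 27.6 CPM with TGF-b1 against 10.9 CPM in CD mock. When SB431542 was added to TGF-b1, 20 were called higher and 1, Il6, lower than with TGF-b1 (41.4% and 38.3% of all genes). With TGF-b1 and SB431542 against CD mock 13 were called higher and 4 lower (30.6% and 30.4% of all genes), and Irf7, an interferon regulatory factor, rose by 2.92 log2. In HFD mock 5 were called higher and 10 lower than in CD mock (27.1% and 26.6% of all genes), none by 1 log2 unit. In Itga5-High 7 were called higher and 5 lower than in Itga5-Low, none by 1 log2 unit, shares near the 27% and 26.5% of all genes.

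By likeness of pattern, measured as Pearson's r of log2(CPM + 1) over the 12 undifferentiated libraries among 10484 genes, C3 was closest to Dcn, which encodes the matrix proteoglycan decorin (r = 0.999), Zfp36l1 and Idh2. C1ra was closest to Selenop, Slfn5 and Ifi204, and C1s1 to Efemp1, Oasl2 and Tnxb. Cfb had another member, C1ra, among its 3 closest genes (r = 0.997), with Naglu and Mettl7a1. The closest genes were Afap1l1, Cavin2 and Sncg for C2, Abi3bp, H6pd and Sh3tc1 for C4b, Net1, Isyna1 and Laptm4a for C7, and Cd93, Pam and Ampd3 for Serping1. These values describe 4 groups of 3 similar libraries, so that r rests mainly on the 4 group levels.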

How the data were processed

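Poly(A) RNA of 18 libraries was sequenced. The authors deposited expected counts per RefSeq transcript, not scaled, in a table of 12 undifferentiated and one of 6 differentiated libraries; fastp, STAR, featureCounts and build mm10 are named in the submitters' processing notes, while strandedness, tool versions and how reads were divided among transcripts are not stated there. No transcript of another listed gene overlapped a member.

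Transcripts of a symbol were added up and rounded (Python 3.11.15, numpy 2.4.6, pandas 2.3.3). Each table was fitted whole with edgeR 4.0.16 in R 4.3.3 (filterByExpr, TMM, quasi-likelihood test, 1 coefficient per group), leaving 14078 and 13468 genes. A call is a two-sided Benjamini-Hochberg adjusted p under 0.05 over all genes of the table. For SEs the dispersion was held at or above 1e-04. Alternatives were scaling by total counts, DESeq2 1.42.0, no filter, leaving out each library, the replicate block, the dispersion floor and fits of 2 groups. The test was checked on simulated counts. Members, lists and named genes (members, other complement genes at 10 CPM or more or of fixed symbols, and the 3 genes of most similar pattern) were chosen with earlier results of these data known. Some listed genes are not reported here by name. C5 was listed beside its mouse symbol Hc. Totals were 11154449 counts or more per library.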

Additional observations from a re-analysis of the deposited data

How the results depend on the processing

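All 40 changes of the 8 members (8 genes in 5 comparisons) kept their direction and their call in all 472 alternative values, as did the counts of members called. Counts past 1 log2 unit moved with total counts, to 5 from 3 in HFD mock against CD mock and to 3 from 2 in Itga5-High against Itga5-Low; leaving out a library gave 3 to 4 and 2 to 3. The largest adjusted p was 0.000683, for Serping1 in HFD mock against CD mock, whose change ran from -0.20 to -0.098 log2; that of C4b in Itga5-High against Itga5-Low ran from -0.19 to -0.15 log2. No pairing by replicate number was seen, with correlations of same-numbered deviations between -0.0225 and 0.0235. Replicates differed by little more than counting noise, so this check could hardly have shown a pairing. With the replicate block TGF-b1 against CD mock called 4694 genes higher and 4778 lower, in place of 4705 and 4812. No member call changed with the block in any comparison. CPM by unscaled column totals gave member levels 0.921 to 1.1 times those reported. Among other complement genes, scaling by total counts turned Calr (-0.053 log2) and Itgam (-0.0304 log2) in TGF-b1 against CD mock, and Colec12 (-0.0198 log2) in Itga5-High against Itga5-Low. Leaving out 1 library turned Cd59a (from -0.0078 to 0.172 log2 over these values), Cd93 (from -0.379 to 0.165 log2) and Cfp (from -0.0237 to 0.118 log2) in Itga5-High against Itga5-Low, none of them called in the fit of all libraries. The cause was not tested. Of the 21 receptor, transcription factor, cytokine and inhibitor genes, 2 in place of 1 were called higher with TGF-b1 without CD mock replicate 1. With total counts 2 in place of 4 were lower with TGF-b1 and SB431542 against CD mock, and 3 in place of 5 higher in HFD mock. Depth limits C7 in TGF-b1, at 7 to 13 counts a library, and Cfd, at 0 to 2.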
